A study of Mus musculus with 9 samples.

Results

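The comparison was between CD8 T cells under conditions of deletional tolerance and naive CD8 T cells of the same kind, on 6 of the 9 arrays of the study. Its members were taken from the labels: 3 arrays of deletion cells, which had met their cognate antigen in the living mouse as a weak signal, and 3 arrays of naive cells, labelled as the control. All cells were purified CD8 T cells with a transgenic T cell receptor, from female mice of the B10D2 strain. The remaining 3 arrays held anergy cells, which had met the antigen in vivo as a strong signal. They entered the estimate of the spread and a direct test against deletion. The antigen, its dose, the time after it was given, the age of the mice and the number of animals behind a sample are not stated in the labels. Nothing says that the replicates came from separate animals, so a p-value here sets a difference against the spread of these arrays alone, and that spread may be technical. The study asked about the part that protein glycosylation may play in the choice between deletion and anergy, and the custom GLYCOv4 array carries genes that make, carry or bind glycans, and those of cytokines and chemokines with their receptors.

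Peripheral deletion is a form of tolerance in which CD8 T cells that recognise an antigen of the body's own tissues respond to it for a time and are then lost. Cells that have met antigen typically change their surface receptors, from those that keep a naive cell in lymph nodes and alive on interleukin-7 to those that read inflammatory cytokines and chemokines. Their surface glycans change as well, since the enzymes that build O-glycans and sialic acid caps are themselves regulated on activation.

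Each array gave 1246 log2 values, from 1.67 to 13.86 over the 9 arrays, and the medians of the 6 arrays compared lay between 4.44 and 4.50. Pearson correlations between arrays of 1 group were 0.9972 to 0.9981 in naive and 0.9960 to 0.9973 in deletion. Those between a naive and a deletion array were 0.9594 to 0.9658. The number of arrays limits the precision, and the median standard error (SE) of a difference was 0.087 on the log2 scale.

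The label could be checked against T cell markers only in part. No gene of the Cd3 or Cd8 chains matched a named probe set. Of 10 fixed markers of T cell identity only Cd2 was measured, and it had values of 11.53 to 11.68 in naive and 9.82 to 10.38 in deletion. Markers of other cells were measured in several lists. Their levels were summed before the log was taken, so the brightest markers of a list weigh most in its sum. The summed level of 17 macrophage and dendritic cell markers was 8.43 to 8.44 in naive and 8.21 to 8.39 in deletion, with 0 called higher and 1 lower. The median level of these markers in deletion was 3.36, so the sum says little of the dimmer ones. The summed level of 4 natural killer cell markers was 5.56 to 5.82 against 5.57 to 6.37 and none was called by limma. Of 6 B cell markers, 3 were called higher (Cd22, Cd83 and Cxcr5) and 1 lower (Cd72), with a summed level of 9.36 to 9.49 against 9.20 to 9.58. The summed level of 7 endothelial, stromal and platelet markers was higher in every deletion array, at 9.05 to 9.22 against 8.73 to 8.83 in naive. Pecam1 was the 1 marker of that list called, higher. Its values, given below with the adhesion genes, stood close to the sum in both groups, while the median level of the 7 markers in deletion was 3.69. The sum thus mostly follows Pecam1 and says little of the other markers. Of 4 granulocyte and erythroid markers 1 was called higher (Siglecf), with a summed level of 5.81 to 5.96 in naive and 5.85 to 5.92 in deletion. Without deletion replicate 1, 2 of the macrophage and dendritic cell markers, Adgre1 and Clec4n, were called higher. The lowest value on the arrays was 1.67, so no marker stood at 0, and the part of other cells in the results below was not tested.

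Deletion cells had higher values than naive cells for 4 secreted effector proteins, cell division subunits, galectins 1 and 3 and the receptors of interleukin-18 and interleukin-33. They had lower values for receptors for interleukin-7, transforming growth factor beta (TGF-beta) and interferon gamma, and for the gut homing pair Ccr9 and Itgae. In limma, 106 probe sets were higher in deletion (8.51%) and 131 were lower (10.5%) at an adjusted p under 0.05. With 1 probe set per gene, 89 of 909 named genes were higher (9.79%), 105 were lower (11.6%) and 715 were not called. The largest changes were more often rises. At least 8-fold differences were 9 higher and 3 lower, at least 4-fold 17 and 6, and at least 2-fold 27 and 21. The median difference over all probe sets was -0.02 on the log2 scale.

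**Figure D1:**
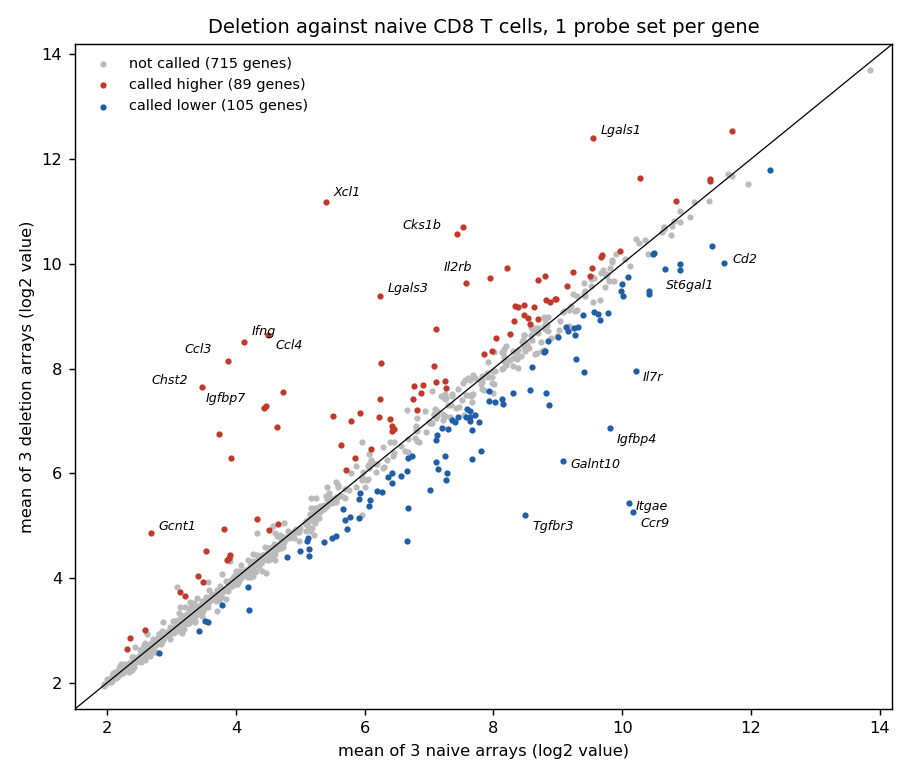
Mean log2 value of each of 909 genes in the 3 deletion arrays (y axis) against that in the 3 naive arrays (x axis). Red points are the 89 genes called higher, blue points the 105 called lower and grey points the 715 not called; Xcl1 lies farthest above the diagonal, at 5.40 and 11.19, and Ccr9 and Itgae farthest below it.

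Promoter sequences of 5 called genes are shown as examples. Some genes with larger falls than Il7r, such as Itgae and Tgfbr3, are not among them. Xcl1, Ifng and Ccl3 were among the 4 largest rises of named genes. Ccr9 and Il7r are a homing and a survival receptor that fell. Each sequence is the 250 bases before the gene's start, 5′ to 3′ on the gene's own strand, from RefSeq on GRCm38.p6. Capitals mark matches to 5 short motifs, searched on both strands: TGANTCA (AP-1), GGAAAA (the core read by NFAT), GGTGTGA (T-box factors), TGTGGT (RUNX factors) and TATAAA (the TATA box). The coordinates are chr1:164935523-164935772 (minus strand) for Xcl1, chr10:118440796-118441045 (plus) for Ifng, chr11:83649379-83649628 (minus) for Ccl3, chr9:123766961-123767210 (plus) for Ccr9 and chr15:9529877-9530126 (minus) for Il7r.
Xcl1: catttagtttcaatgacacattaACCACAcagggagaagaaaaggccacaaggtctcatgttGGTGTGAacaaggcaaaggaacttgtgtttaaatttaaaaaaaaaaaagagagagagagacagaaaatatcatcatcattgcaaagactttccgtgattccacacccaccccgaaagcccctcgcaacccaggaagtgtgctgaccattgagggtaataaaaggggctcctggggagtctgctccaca
Ifng: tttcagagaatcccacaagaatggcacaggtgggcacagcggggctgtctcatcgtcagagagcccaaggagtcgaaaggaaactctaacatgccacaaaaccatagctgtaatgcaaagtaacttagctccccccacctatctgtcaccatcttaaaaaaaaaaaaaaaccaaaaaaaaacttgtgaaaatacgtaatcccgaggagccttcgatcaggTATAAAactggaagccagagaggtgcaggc
Ccl3: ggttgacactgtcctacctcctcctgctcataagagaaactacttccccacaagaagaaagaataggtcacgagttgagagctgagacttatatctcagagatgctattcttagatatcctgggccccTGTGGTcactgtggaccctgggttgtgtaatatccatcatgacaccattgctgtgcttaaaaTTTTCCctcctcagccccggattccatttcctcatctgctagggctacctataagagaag
Ccr9: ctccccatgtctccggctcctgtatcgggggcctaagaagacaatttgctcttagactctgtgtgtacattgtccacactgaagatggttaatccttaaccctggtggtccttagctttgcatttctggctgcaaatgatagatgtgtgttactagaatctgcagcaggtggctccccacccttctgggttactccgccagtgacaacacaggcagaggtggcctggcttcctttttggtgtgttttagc
Il7r: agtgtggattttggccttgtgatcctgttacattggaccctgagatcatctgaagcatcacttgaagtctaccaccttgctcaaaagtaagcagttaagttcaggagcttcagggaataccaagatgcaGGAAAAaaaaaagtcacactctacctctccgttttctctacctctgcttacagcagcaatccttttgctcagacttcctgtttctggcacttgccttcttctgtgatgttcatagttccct
The window of Xcl1 held a T-box match at -188 and a RUNX match at -227, counted from the gene's start, and that of Ccl3 a RUNX match at -122 and an NFAT core at -60. The window of Ifng held a TATA box at -30, and that of Il7r an NFAT core at -121. The window of Ccr9 held none of these letters. Among all 32851 RefSeq promoters of this length, 6.75% held the AP-1 letters, 20.4% the NFAT core, 3.33% the T-box letters, 14% the RUNX letters and 12.4% the TATA box. Of 909 genes, 708 had a promoter in the table. The NFAT core was found in 19.4% of 72 genes called higher, 9.52% of 84 called lower and 17.6% of 552 not called. The AP-1 letters were found in 1.39%, 9.52% and 6.52% of them. For the T-box letters the shares were 5.56%, 2.38% and 2.9%, and for the RUNX letters 15.3%, 15.5% and 10.7%. For the TATA box they were 8.33%, 3.57% and 14.3%. These shares were not tested, and a match is not a bound site.

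Xcl1 (lymphotactin), a chemokine that CD8 T cells make and that draws cross-presenting dendritic cells, showed the largest rise. Its log2 values were 5.47, 5.61 and 5.13 in naive replicates 1 to 3 and 10.87, 10.97 and 11.74 in deletion replicates 1 to 3. The groups did not overlap and the difference was 5.79 ± 0.21 (SE), or 55.3-fold (95% limits 40.1 to 76.3; adjusted p = 2.16e-08). In RNA of whole populations, a change in the number of cells that express a gene and a change in the RNA per cell cannot be told apart.

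Ifng, the cytokine interferon gamma, had values of 4.15, 4.43 and 3.82 in naive cells and 8.39, 7.85 and 9.29 in deletion cells, a rise of 4.38 ± 0.33 (adjusted p = 5.64e-06). Ccl3 and Ccl4, inflammatory chemokines, moved with it. Ccl3 went from 3.78, 3.94 and 3.93 to 7.79, 7.92 and 8.75, a rise of 4.27 ± 0.22. Ccl4 went from 4.29, 4.57 and 4.63 to 8.07, 8.58 and 9.26, a rise of 4.14 ± 0.24. For Xcl1, Ifng, Ccl3 and Ccl4 the highest deletion value was that of replicate 3, and the lowest deletion value was more than 3 log2 units above the highest naive value.

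The other effector genes of the list changed little or not at all. Il2, the growth factor of activated T cells, stood at 2.53, 2.18 and 2.35 in naive and 2.60, 2.86 and 3.12 in deletion, a rise of 0.51 (adjusted p = 0.0240) at values near the lowest measured. Csf2, which encodes GM-CSF, rose by 0.45 (adjusted p = 0.00255). Ccl5, a chemokine of memory and effector CD8 cells, was 8.30, 8.01 and 7.67 in naive and 7.25, 7.23 and 8.14 in deletion, and its difference of -0.45 was not called (adjusted p = 0.290). The type 2 and type 17 cytokines Il4, Il5, Il13, Il17a and Il22 had differences between -0.22 and 0.06, none of them called. In all, 6 of 19 measured genes of this list were higher (31.6%, against 9.79% of all genes) and 0 were lower, with a median difference of 0.02. Without deletion replicate 3, Ccl5 was called lower.

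**Figure D2:**
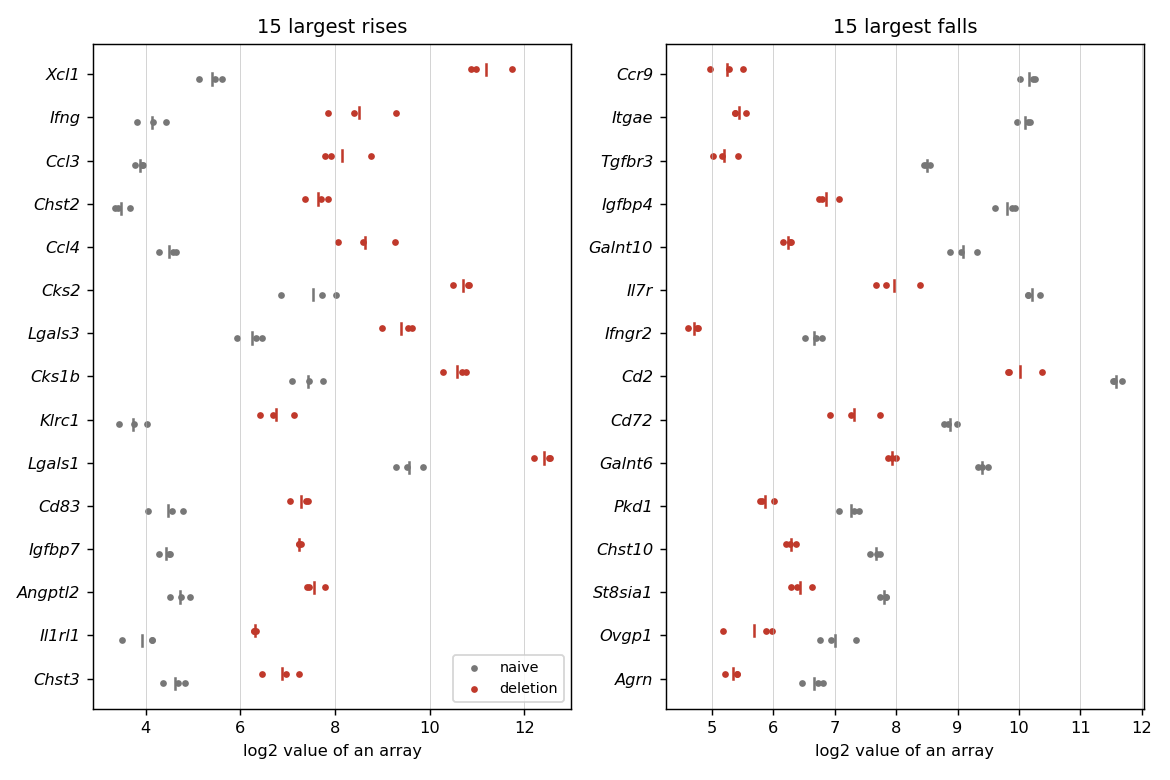
Log2 value of each array for the 15 largest rises (left) and the 15 largest falls (right) among named genes, with 1 probe set per gene. Grey points are the 3 naive arrays, red points the 3 deletion arrays and vertical bars the group means. No gene shown overlaps between the groups, and Itgae goes from about 10 in naive to values of 5.37 to 5.56 in deletion.

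Receptors of cytokines changed in both directions. Among genes of the common gamma chain receptors, 1 of 10 was higher and 4 were lower (40%, against 11.6% of all genes). Il7r, whose product keeps naive T cells alive, had values of 10.14, 10.34 and 10.15 in naive and 7.67, 8.38 and 7.83 in deletion, a fall of 4.76-fold (95% limits 3.48 to 6.50; adjusted p = 2.28e-05). Il2rb, the beta chain shared by the receptors of interleukin-2 and interleukin-15, moved the other way, from 7.97, 8.05 and 7.82 to 9.85, 9.73 and 9.61, a rise of 3.44-fold (2.99 to 3.96).

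The remaining calls of this family were smaller falls: Il4ra by -0.76 ± 0.08, Il21r by -0.73 ± 0.08 and Il2rg, the common gamma chain itself, by -0.49 ± 0.08. Il2rg stood at 12.20, 12.38 and 12.29 in naive and 11.72, 11.80 and 11.89 in deletion. Il2ra, the interleukin-2 receptor alpha chain that T cells induce on activation, was not called, with a difference of 0.11 (adjusted p = 0.633) and overlapping groups. Il15ra had a difference of -0.19 in the probe set that stands for the gene, which was not called, and -0.31 in its other probe set, which was (adjusted p = 0.0455).

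Interferon gamma and its receptor moved in opposite directions. While Ifng rose, Ifngr2, the signalling chain of the receptor, fell from 6.51, 6.69 and 6.79 to 4.60, 4.77 and 4.75, a fall of 3.88-fold (3.34 to 4.51; adjusted p = 2.61e-07). Ifngr1, the chain that binds the ligand, fell from 9.31, 9.42 and 9.08 to 8.58, 8.66 and 8.67, by -0.63 ± 0.08. The type I interferon receptor genes Ifnar1 and Ifnar2 were not called, at -0.24 and 0.09.

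Both chains of the interleukin-18 receptor were higher. Il18r1 was 7.16, 7.02 and 7.13 in naive and 8.93, 8.70 and 8.65 in deletion, a rise of 3.15-fold (2.71 to 3.67). Il18rap was 5.38, 5.70 and 5.45 in naive and 7.17, 6.96 and 7.18 in deletion, a rise of 3.02-fold (2.56 to 3.56). Interleukin-18 raises interferon gamma output in T cells that carry this receptor, and its own gene Il18 was higher by 1.11 (adjusted p = 0.000245). The genes of the 2 interleukin-12 receptor chains did not follow: Il12rb1 was not called, at -0.03, and Il12rb2 was lower by -0.42 ± 0.07, from 3.56, 3.55 and 3.60 to 3.22, 3.08 and 3.14.

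Il1rl1, which encodes ST2, the receptor of interleukin-33, had values of 3.50, 4.13 and 4.14 in naive and 6.29, 6.29 and 6.32 in deletion, a rise of 2.38 ± 0.15 (adjusted p = 1.9e-06). A different probe set of the gene gave 0.10 and was not called. Il1rap, the partner chain of ST2, was higher by 0.50. Il27ra, the receptor of interleukin-27, fell by 0.92 ± 0.07, from 10.33, 10.43 and 10.46 to 9.42, 9.54 and 9.51. Il6ra had a difference of -0.16 that was not called in the probe set standing for the gene, but another of its probe sets fell by -1.03 (adjusted p = 4.8e-06), from a mean of 4.36 to 3.33. Over this list of 25 interferon and interleukin receptors, 6 were higher (24%, against 9.79% of all genes) and 6 lower (24%, against 11.6%). The smaller calls of Il10ra, Il17ra and Il1rl2, at 0.39, -0.45 and -0.36, were each lost in 4 or 5 of 15 other settings.

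**Figure D3:**
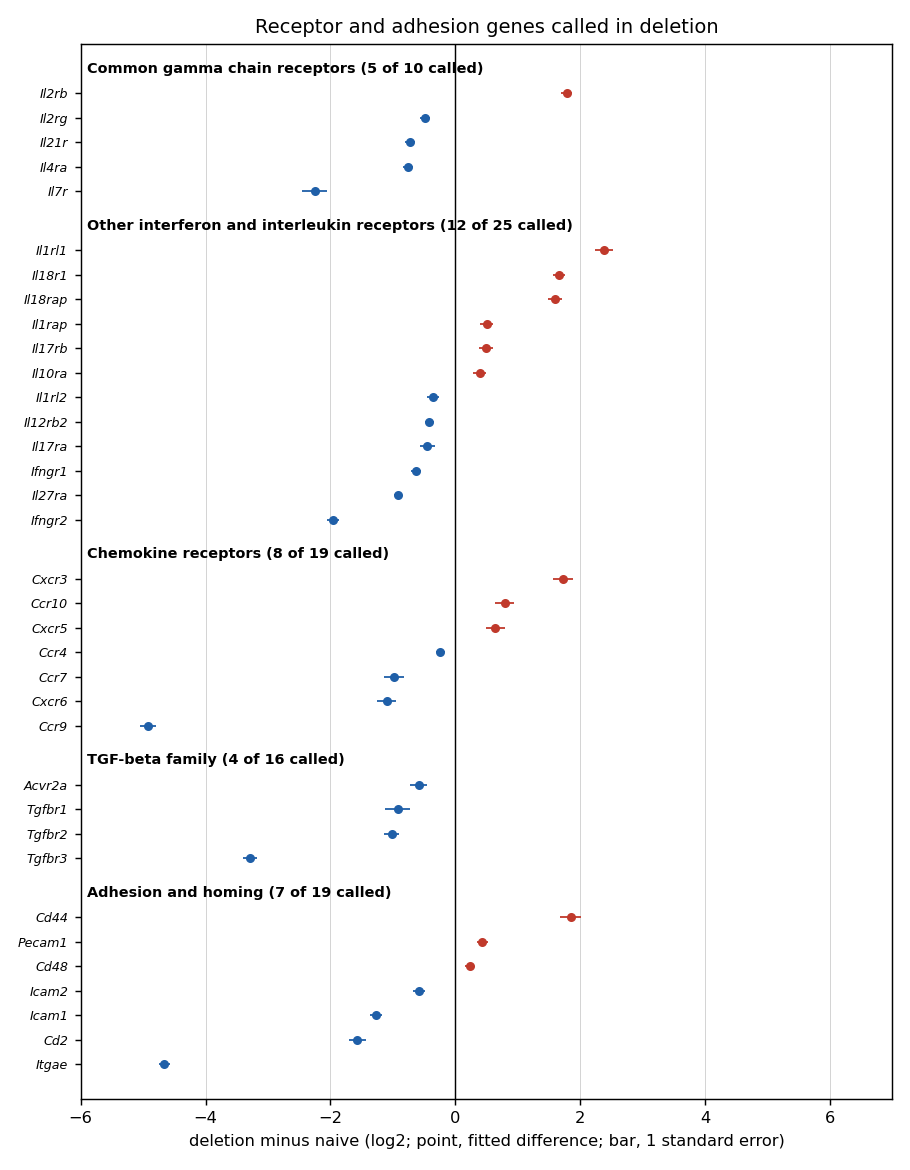
Fitted difference of deletion minus naive (log2, x axis) with a bar of 1 standard error for called genes of 5 lists of receptors and adhesion molecules; red is higher and blue is lower in deletion. The TGF-beta list holds falls only, from -0.59 for Acvr2a to -3.29 for Tgfbr3, while the cytokine receptor lists hold both.

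Genes of the TGF-beta family that were called were all receptors and all lower: 4 of 16 (25%, against 11.6%), and 0 were higher, apart from Acvr1 with array weights and Bmp7 without deletion replicate 1. Tgfbr3, which encodes betaglycan, the coreceptor that presents TGF-beta, had values of 8.55, 8.48 and 8.45 in naive and 5.01, 5.16 and 5.43 in deletion, a fall of 9.80-fold (95% limits 8.24 to 11.7; adjusted p = 1.63e-08). The signalling receptors fell less. Tgfbr2 went from 10.81, 11.08 and 10.82 to 9.80, 10.03 and 9.83, by -1.02 ± 0.12, and its other probe set by -0.56. Tgfbr1 went from 7.08, 7.50 and 7.18 to 6.30, 6.64 and 6.06, by -0.92 ± 0.20. Acvr2a, an activin receptor, fell by 0.59. The ligands Tgfb1, Tgfb2 and Tgfb3 were not called, at 0.18, 0.03 and -0.18, nor were the bone morphogenetic protein receptors Bmpr1a, Bmpr1b and Bmpr2, at -0.04 to 0.11.

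Itgae encodes the integrin alpha chain CD103, which binds E-cadherin on epithelia. It stood at 10.15, 9.96 and 10.18 in naive and 5.38, 5.37 and 5.56 in deletion, a fall of 25.3-fold (22.2 to 28.8; adjusted p = 2.9e-10). Ccr9, the chemokine receptor that directs T cells to the small intestine, fell from 10.26, 10.22 and 10.02 to 4.96, 5.28 and 5.51, or 30.2-fold (24.5 to 37.2). Its other probe set fell by 4.59, from a mean of 8.25 to 3.66. In both genes every deletion array lay at least 4 log2 units below every naive array.

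Of 19 chemokine receptors, Ccr9 included, 4 were higher and 4 were lower (21.1% each, against 9.79% and 11.6% of all genes). Cxcr3, which guides effector cells to inflamed tissue, rose from 8.30, 8.52 and 7.80 to 10.09, 9.77 and 9.94, by 3.31-fold (2.57 to 4.26). Ccr10 and Cxcr5 rose by 0.79 and 0.64. The higher count fell to 2 without naive replicate 1, naive replicate 3 or deletion replicate 3, where Cxcr5 was no longer called and Cxcr3 and Ccr10 were.

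Ccr7, the receptor that brings naive T cells into lymph nodes, was 10.49, 10.43 and 10.32 in naive and 9.45, 9.63 and 9.20 in deletion, a fall of -0.99 ± 0.16. Cxcr6 fell by -1.10 ± 0.15, from 9.46, 9.24 and 9.14 to 8.02, 8.48 and 8.04, and Ccr4 by -0.24 at values near 3, a call lost in 9 of 14 other settings.

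Of 19 adhesion and homing genes, 3 were higher (15.8%, against 9.79% of all genes) and 4 lower (21.1%, against 11.6%). Cd44, the hyaluronan receptor that is raised on cells that have met antigen, went from 6.47, 6.44 and 5.88 to 7.99, 8.39 and 7.96, a rise of 3.61-fold (2.76 to 4.70). Cd2, an adhesion receptor of T cells, fell from 11.68, 11.54 and 11.53 to 9.84, 9.82 and 10.38, or 2.97-fold (2.41 to 3.66). Its mouse ligand Cd48 rose by 0.23, a call lost in 6 of 15 other settings. Icam1 and Icam2, ligands of the integrin LFA-1, fell by -1.27 ± 0.09 and -0.58 ± 0.10. Pecam1 (CD31) rose by 0.43 ± 0.09, from 8.52, 8.62 and 8.49 to 8.97, 9.07 and 8.87.

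Klrc1, the inhibitory lectin receptor NKG2A, rose from 3.76, 4.02 and 3.43 to 6.68, 6.42 and 7.14, or 8.06-fold (6.06 to 10.7). Klrd1, which encodes CD94, the chain that NKG2A needs at the surface, fell from 11.33, 11.51 and 11.35 to 10.38, 10.16 and 10.52, by -1.04 ± 0.10. The list of natural killer lectin receptors had 18 measured genes, and limma called no others (5.56% each way), among them none of the 10 Ly49 genes (Klra). The higher count was 2, with Klrb1f or Klrk1, when only the 2 groups were fitted, with array weights and without deletion replicate 2, anergy replicate 1 or anergy replicate 3. The lower count was 2, with Cd69, without deletion replicate 3.

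Of 5 measured genes of inhibition and activation, only Cd83, a surface marker of activated lymphocytes and dendritic cells, was called. It stood at 4.78, 4.56 and 4.05 in naive and 7.04, 7.38 and 7.43 in deletion, a rise of 7.06-fold (5.04 to 9.89). Prdm1 (Blimp-1) and Havcr2 (Tim-3), genes of exhausted and terminal effector cells, were not called, at -0.08 and 0.10. Cd69, an early activation marker, was 8.84, 8.91 and 8.54 in naive and 7.78, 7.76 and 9.44 in deletion. Its groups overlapped: deletion replicate 3 lay above all naive arrays and the other 2 below them, and without that replicate Cd69 was called lower.

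Galectins bind beta-galactosides on cell surfaces, and galectin-1 can promote death of activated T cells. Lgals1 rose from 9.86, 9.52 and 9.28 to 12.53, 12.51 and 12.20, or 7.26-fold (5.86 to 8.99). Lgals3 rose from 6.33, 5.92 and 6.46 to 9.54, 9.63 and 9.0, or 8.90-fold (6.80 to 11.6). Both had their lowest deletion value in replicate 3, the array with the highest Xcl1 and Ifng. Lgalsl rose by 0.38, Grifin fell by 0.35, and Lgals4, Lgals8 and Lgals9 were not called, so that 3 of 10 galectin genes were higher (30%, against 9.79% of all genes) and 1 lower (10%, against 11.6%). Lgals4 was called lower as well with array weights or without deletion replicate 2, and Lgals8 without anergy replicate 3.

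Lectins best known from B cells also moved. Cd22, a siglec that binds alpha-2,6-linked sialic acid, rose from 5.97, 6.26 and 6.50 to 7.39, 7.16 and 7.70, by 1.17 ± 0.16. Cd72 fell from 8.85, 8.77 and 8.99 to 7.26, 6.92 and 7.74, or 2.96-fold (2.26 to 3.86). Of 9 siglecs, Cd22 and Siglecf were higher, the latter by 0.33 from a mean of 2.31, a call lost in 5 of 14 other settings, and 7 were not called. Cd22, Cd72 and the raised Cd83 are all members of the B cell marker list, so its summed level combines changes in opposite directions.

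Cks1b and Cks2, the 2 measured genes of cell division, encode small subunits that bind cyclin-dependent kinases. Cks1b rose from 7.75, 7.44 and 7.10 to 10.76, 10.68 and 10.27, or 8.82-fold (6.77 to 11.5). Cks2 rose from 8.01, 7.73 and 6.85 to 10.83, 10.81 and 10.49, or 9.06-fold (6.20 to 13.2). The other 13 genes of the list did not match a named probe set, so nothing further can be said of the cell cycle. Of 6 genes of glycolysis and carbon metabolism only Pgm2 was called, at 0.39, a call lost in 5 of 15 other settings.

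Proteins that bind insulin-like growth factors moved apart. Igfbp7 rose from 4.29, 4.49 and 4.51 to 7.23, 7.23 and 7.28, or 7.05-fold (6.31 to 7.87; adjusted p = 3.34e-09). Igfbp4 fell from 9.61, 9.94 and 9.88 to 6.79, 6.74 and 7.06, or 7.71-fold (6.32 to 9.40), while the 2 further probe sets of the gene gave -4.36 and -5.14. Igf2r, the mannose 6-phosphate receptor, rose by 0.42, and the other 10 of 13 genes, among them Igf1r at 0.08, were not called. Angptl2, a secreted glycoprotein of the angiopoietin-like family, rose from 4.74, 4.94 and 4.52 to 7.45, 7.41 and 7.78.

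Glycan enzymes, the subject of the array, were called in both directions. Their share of rises was close to that of all genes, and their share of falls was above it. Of 226 genes in 13 lists, 24 were higher (10.6%), 36 were lower (15.9%) and 166 were not called, with a median of -0.03, beside 9.79%, 11.6% and -0.02 for all genes. After quantile normalization 36 were higher and 37 lower, but the counts over all 909 named genes also went up, to 115 higher and 115 lower. Enzymes that begin O-GalNAc glycans were lower in 5 of 19 cases (26.3%). None of them was higher in any setting in which the lists were counted. Enzymes that extend the chain were higher in 2 of 14 (14.3%) and lower in none. St3gal1 or C1galt1c1 of the latter list was called lower with only the 2 groups, with array weights, with a replicate block and without anergy replicate 1.

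Galnt10, which adds the first GalNAc, went from 8.87, 9.32 and 9.05 to 6.15, 6.29 and 6.27, a fall of 7.18-fold (5.83 to 8.83). Galnt6 went from 9.39, 9.49 and 9.33 to 7.93, 7.87 and 7.99, a fall of 2.78-fold (2.51 to 3.08). Galnt11, Galnt2 and Galnt12 fell by -0.83, -0.47 and -0.33. Gcnt1, which makes the core 2 branch, rose from 2.54, 2.51 and 2.98 to 4.78, 4.76 and 5.0, or 4.50-fold (3.59 to 5.64), although its other probe set gave 0.19 and was not called. B4galt5 rose by 0.96, and the core 1 gene C1galt1 was not called, at 0.21.

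The enzymes that finish selectin ligands held the largest glycan rise. Chst2, which puts sulfate on GlcNAc, went from 3.66, 3.35 and 3.41 to 7.36, 7.84 and 7.71, or 17.9-fold (13.8 to 23.2; adjusted p = 5.39e-08). Fut7, the fucosyltransferase of sialyl Lewis x, went from 5.90, 5.94 and 5.52 to 6.97, 7.26 and 6.74, a rise of 1.20. St3gal4 rose by 0.48. With Gcnt1 these made 4 of 13 genes higher (30.8%, against 9.79% of all genes), and 3 were lower (23.1%, against 11.6%): B4galt1 by -0.62, St3gal3 by -0.60 and Tpst2, which sulfates tyrosines, by -0.50.

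Of 19 sialyltransferases 1 was higher (5.26%) and 3 were lower (15.8%), against 9.79% and 11.6% of all genes. The higher count was 2, with St3gal5 or St6galnac6, with only the 2 groups, after quantile normalization, with a replicate block and without naive replicate 2 or anergy replicate 1. St8sia1, which makes the ganglioside GD3, fell from 7.84, 7.84 and 7.73 to 6.29, 6.62 and 6.38, by -1.37 ± 0.12. St6gal1, which adds the alpha-2,6-linked sialic acid of N-glycans, fell from 10.86, 11.05 and 10.80 to 9.86, 10.08 and 10.07, by -0.90. St3gal1, which caps core 1, was not called at -0.28, and it was called in 2 of 15 other settings. Cmah, which hydroxylates the sialic acid donor, fell by 0.72, and so did the sialidase Neu1, while Nans, which makes sialic acid, rose by 0.67.

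**Figure D4:**
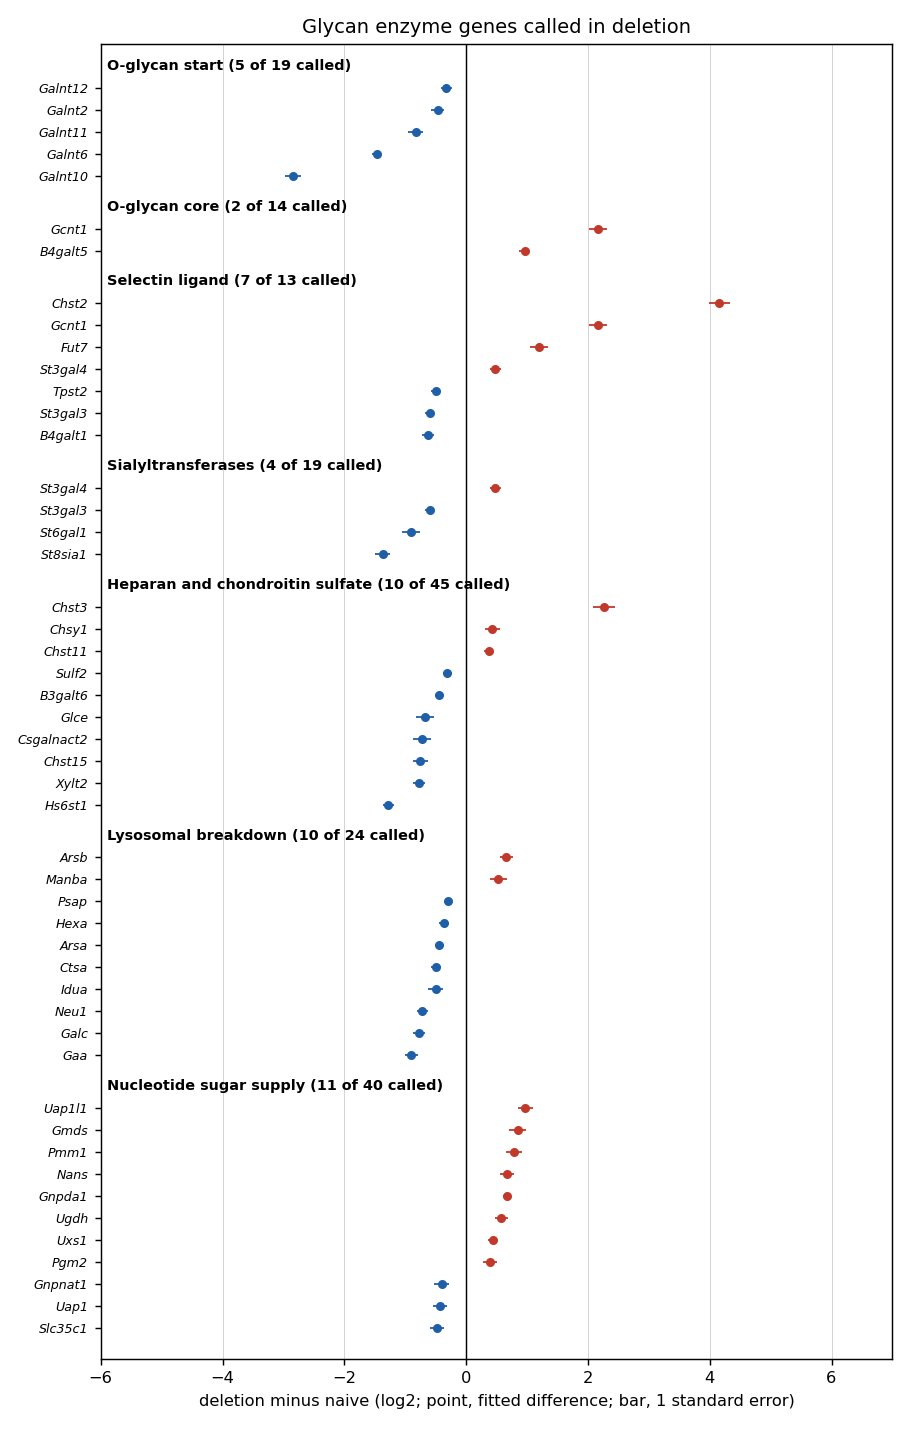
Fitted difference of deletion minus naive (log2, x axis) with a bar of 1 standard error for every called gene of 7 lists of glycan enzymes; red is higher and blue is lower in deletion, and a gene that belongs to 2 lists is drawn in both. O-glycan start holds 5 falls and no rise, and nucleotide sugar supply holds 8 rises and 3 falls.

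Nucleotide sugar supply was the glycan list with the most rises by count, 8 of 40 (20%, against 9.79%), and 3 were lower (7.5%, against 11.6%). By share, the selectin ligand enzymes had more rises (30.8%). The rises lay between 0.39 and 0.97. They included Uap1l1 (0.97), Gmds, which makes GDP-fucose (0.85), Pmm1 (0.78), Gnpda1 (0.67) and Ugdh, which makes UDP-glucuronate (0.58). Slc35c1, the Golgi carrier of GDP-fucose, fell by -0.48, Uap1 by -0.43 and Gnpnat1 by -0.40. The higher count was 13 after quantile normalization, a setting in which more of all genes were called higher too. The lower count was 1 after median centring or without naive replicate 1, deletion replicate 1 or deletion replicate 2, and 0 without naive replicate 2.

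In the list of lysosomal glycan breakdown, which holds enzymes and proteins that assist them, 8 of 24 genes were lower (33.3%, against 11.6%) and 2 higher. Gaa, which degrades glycogen, fell by 0.90, from 7.03, 7.34 and 6.95 to 6.14, 6.12 and 6.36. Galc, Neu1, Idua, Ctsa, Arsa, Hexa and Psap fell by -0.78 to -0.29. Arsb, a sulfatase of chondroitin and dermatan sulfate, rose by 0.66, and Manba by 0.53, and the call of Manba was lost after median centring or without naive replicate 1, naive replicate 3 or deletion replicate 2.

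Among enzymes of heparan and chondroitin sulfate, 7 of 45 were lower (15.6%) and 3 higher (6.67%), against 11.6% and 9.79% of all genes. Chst3, a chondroitin 6-O-sulfotransferase, rose from 4.83, 4.69 and 4.36 to 6.97, 7.23 and 6.46, or 4.79-fold (3.62 to 6.33). Hs6st1, a heparan sulfate 6-O-sulfotransferase, fell from 7.25, 7.32 and 7.26 to 5.93, 5.99 and 6.07, by -1.28 ± 0.09. Xylt2, which starts the chains, fell by 0.78. Of 23 proteoglycan core proteins 2 were higher (8.70%) and 4 lower (17.4%), against 9.79% and 11.6% of all genes. Agrn (agrin) fell by -1.32, Gpc1 by -0.60 and Gpc2 by -0.34, and betaglycan is described above. Vcan (versican) rose by 0.98 from a mean of 3.54. Srgn, the proteoglycan of secretory granules, rose by 0.27, but only 2 of 15 other settings kept that call.

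In the N-glycan pathway, 3 of 16 dolichol-linked precursor genes were higher (18.8%, against 9.79%) and 2 lower (12.5%, against 11.6%), counts that depended on the setting. There were 6 higher with array weights, 6 higher and 4 lower without anergy replicate 3, 5 higher after quantile normalization, and 1 higher (Dpagt1) without naive replicate 1 or deletion replicate 1. The lower count was 1 (Alg1) without naive replicate 2, naive replicate 3 or deletion replicate 2. Alg1 fell by -0.77 and Alg2 by -0.52. Alg6, Dpagt1 and Dpm2 rose by 0.42, 0.36 and 0.25, and none of these 3 was called after median centring or without naive replicate 3 or deletion replicate 2. In trimming and branching, B3gnt2 rose by 0.73, while Man2a2, B4galt1 and B4galt3 fell, Man2a2 by -1.06 from values of 6.67, 7.09 and 7.66 to 6.14, 5.93 and 6.16. Mgat1 rose by 0.29, a call lost in 9 of 15 other settings, and Mgat5 was not called. Piga, needed for the first step of the GPI anchor, fell by 0.98, from 8.44, 8.90 and 8.38 to 7.60, 7.49 and 7.68. Chst10, the sulfotransferase of the HNK-1 epitope, fell from 7.69, 7.74 and 7.58 to 6.36, 6.27 and 6.21, by -1.39 ± 0.07. The 15 largest falls of named genes also held Pkd1, which encodes polycystin-1, from 7.06, 7.40 and 7.32 to 5.82, 5.78 and 6.01. Ovgp1, a chitinase-like glycoprotein, was another of them, from 6.75, 6.93 and 7.35 to 5.88, 5.98 and 5.17.

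Of 26 genes of the glycosphingolipid list, 2 were higher (7.69%) and 4 lower (15.4%), against 9.79% and 11.6% of all genes. B4galt5, whose product makes lactosylceramide, and B3gnt5, which starts the lacto-series, rose by 0.96 and 0.90. St8sia1 and the breakdown genes Galc, Hexa and Psap were the 4 that fell.

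Notch receptors carry O-fucose that Fringe enzymes extend, and this list had 7 of 22 genes lower (31.8%, against 11.6%) and 0 higher. The falls were small. Lfng (lunatic fringe) fell from 7.89, 7.96 and 8.20 to 7.54, 7.31 and 7.27, by -0.64. Notch2 fell by -0.60, Notch1 by -0.38, the ligand gene Jag2 by -0.40, Mfng by -0.37, Pofut2 by -0.42 and Pomgnt1, an enzyme of O-mannose glycans, by -0.39. The lower count was 4 after median centring and without naive replicate 1, naive replicate 2, naive replicate 3, deletion replicate 1 or deletion replicate 3. Jag2, Pofut2 and Pomgnt1 were called in all 6 of these settings, Lfng in all except the one without naive replicate 3, Notch2 only in that one, and Notch1 and Mfng in none of the 6. Psen2, a catalytic subunit of gamma-secretase, which cleaves Notch, rose from 7.47, 7.64 and 7.59 to 9.54, 9.70 and 9.66, by 2.07 ± 0.07 (adjusted p = 2.16e-08). The Notch target gene Hes1 was not called, at -0.08.

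Deletion was also tested directly against anergy, since comparisons of each with naive share the naive arrays. The difference between deletion and anergy was called in few genes, 23 higher (2.53%) and 13 lower (1.43%) of 909. Some genes were raised in anergy and stood at the naive level in deletion. Il2ra had values of 3.64 on average in deletion, 3.53 in naive and 4.69 in anergy, and deletion minus anergy was -1.05. Its deletion and naive means were dim, below the lowest array median of 4.44, and no detection calls were used. Ccr6, Prdm1, Havcr2 and Cxcr4 also stood near naive and below anergy in deletion, with differences from anergy of -1.07, -0.80, -0.76 and -0.74 and differences from naive between -0.08 and 0.10. The call of Cxcr4 was lost in 6 of 15 other settings, while those of the other 4 genes were kept.

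Klrc1 and Il1rl1 were raised in deletion, but less than in anergy. Klrc1 stood at 8.69, 8.60 and 8.55 in anergy, and deletion minus anergy was -1.87 (adjusted p = 0.000368). Il1rl1 stood at 8.18, 8.26 and 8.0 in anergy, and its difference was -1.85 (adjusted p = 0.000252). Igfbp7, Cd83 and Chst3 were raised more in deletion, by 1.06, 1.00 and 0.91 over anergy, and of these only the call of Igfbp7 was kept in all 15 other settings. St6gal1, St8sia1 and Galnt10 had fallen less in deletion, and stood 1.48, 1.30 and 1.00 above anergy.

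Pecam1 and Il12rb2 lay on opposite sides of naive. Pecam1 was higher in deletion than in naive, and its anergy values of 8.40, 8.28 and 8.06 were below all naive arrays. Il12rb2 was lower in deletion, and its anergy values of 3.74, 3.79 and 3.98 were above all naive arrays. All Il12rb2 values were dim, below the lowest array median of 4.44, and no detection calls were used. The difference of deletion minus anergy was 0.72 for Pecam1 and -0.69 for Il12rb2 (adjusted p = 0.00234 and 0.000567). St3gal4 was higher in deletion than in anergy by 0.44, and its anergy values of 6.48, 6.52 and 6.37 overlapped the naive ones, but this call was lost in 9 of 15 other settings. Xcl1, Ifng, Ccl3, Il7r, Ccr9 and Tgfbr3 were not called between deletion and anergy.

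**Figure D5:**
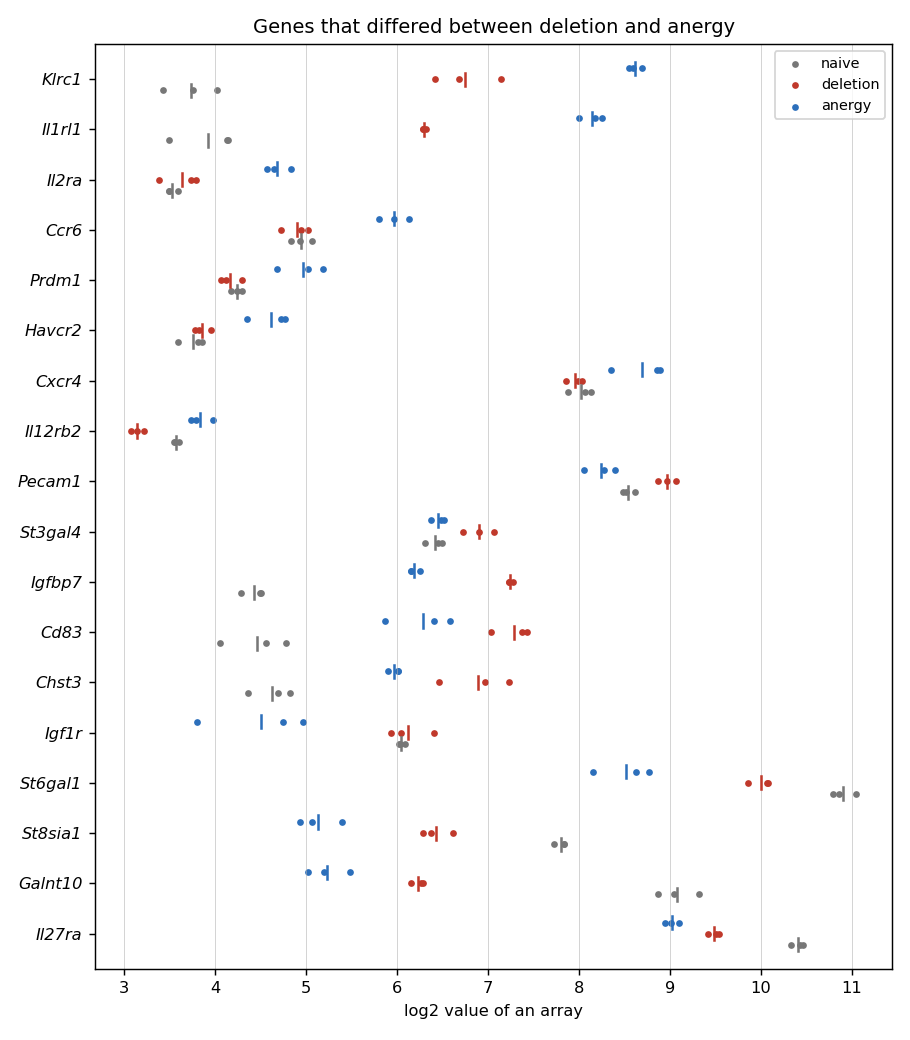
Log2 value of each array for 18 genes that differed between deletion and anergy in limma; grey points are naive, red deletion and blue anergy arrays, and vertical bars the group means. Il2ra, Ccr6, Prdm1, Havcr2 and Cxcr4 show deletion beside naive, while Klrc1 and Il1rl1 show it between naive and anergy.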

How the data were processed

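RNA of purified mouse CD8 T cells was measured on 9 single-colour Affymetrix arrays. Per the labels' protocols, Trizol was used for total RNA, of which 0.5 micrograms went into cRNA labelled with biotin. The authors deposited log2 values for each probe set of each array. The submitters' processing notes name RMA, without a version, and no filter.

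Probe sets were named by RefSeq accession through a gene table of GRCm38.p6 used for names only: 963 of 1246 (77.3%) as 909 genes. The probe set with the highest mean over the 9 arrays stands for a gene with several. The values were used with no further scaling or filter. Contrasts came from limma (3.58.1, under R 4.3.3), using lmFit and eBayes on the 9 arrays together, two-sided, with Benjamini-Hochberg adjustment over 1246 probe sets and a threshold of 0.05, and this fit was tested on simulated data. An error after ± is an SE, and levels are log2 values. The median difference over all probe sets was -0.03 to -0.01 across all settings. No detection calls were used, so it is not known which dim probe sets lay above background.

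The text names the 15 largest rises and falls without overlap between the groups, and up to 4 called members of each list with the smallest adjusted p. These were drawn from named genes only, so the 283 probe sets without a gene name were left out. The text also names 23 preset genes and other called members of a list, whose naming followed their values. The members of the comparison, the lists and this rule were chosen with earlier results of these data known. Lists were described by counts, with no test of a list. Deletion and anergy arrays of the same replicate number deviated together (r = 0.195, 0.270 and 0.280). Arrays of unlike number could do so as well, such as naive replicate 3 and deletion replicate 1 (r = 0.286). The values therefore do not settle whether the numbers pair the arrays. The labels state no pairing, and the main fit used none. With a replicate block, of the named genes that differed between deletion and anergy only Agrn lost its call. Alternatives were other scalings, array weights, no moderation, fitting only the 2 groups, leaving out the dimmest 33.3% of probe sets, the block and leaving out each array. Promoter sequences are RefSeq's. Some list members are counted with their lists but not reported here by name.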

Additional observations from a re-analysis of the deposited data

Results flagged for a closer look

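The effect of the weak signal differed from that of the strong signal in 23 genes with deletion above anergy and 13 with deletion below, by the limma test of deletion minus anergy (adjusted p under 0.05), and 35 of them are given here; with 3 arrays a group no array was tested as an outlier. Values are that difference on the log2 scale. Among receptors and signalling genes, deletion lay below anergy for Klrc1 (-1.87), Il1rl1 (-1.85), Ccr6 (-1.07), Il2ra (-1.05), Prdm1 (-0.80), Havcr2 (-0.76), Cxcr4 (-0.74), Il12rb2 (-0.69), Klrc3 (-0.56) and the cytokine Il21 (-0.56). It lay above anergy for Igf1r (1.62), Igfbp7 (1.06), Cd83 (1.00), Pecam1 (0.72), Cd2 (0.61), Csf2ra (0.55), Il27ra (0.47) and Itgae (0.44).

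Among glycan enzymes and proteoglycans, deletion lay above anergy for St6gal1 (1.48), St8sia1 (1.30), Galnt10 (1.00), Chst3 (0.91), Slc35b3 (0.68), Agrn (0.54), Xylt2 (0.51), St3gal4 (0.44) and Pigp (0.42). It lay below anergy for the chondroitin 4-O-sulfotransferases Chst12 (-0.57) and Chst11 (-0.32). Lysosomal genes above anergy were Lipa (0.60), Gm2a (0.40) and Arsa (0.34). Others were Pfdn5 (0.48) and Psen2 (0.45) above anergy and the glycolytic gene Aldoa (-0.48) below it. The call was kept in every other setting run for 14 of the 35 genes and lost in at least 1 for 21, and no sign turned.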

How the results depend on the processing

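Of 129 named genes called between deletion and naive, 103 kept their call in each of 15 other settings (14 for dim genes). The other 26 lost it in at least 1, and none turned sign. Those settings did not include the fit with no moderation, which is given only as counts. The counts of probe sets, 106 higher and 131 lower, were 32 and 27 when at least 2-fold was asked, 83 and 119 after median centring, 133 and 140 after quantile normalization, 74 and 92 with no moderation, and 78 to 114 and 104 to 153 with 1 array left out. Arrays of naive and deletion with the same replicate number did not deviate together (r = -0.136, 0.118 and -0.142), and a replicate block gave 114 higher and 144 lower. With that block, of those 129 genes only Csf1 and Srgn lost their call, and C1galt1c1, Gpi1, Lipa and St3gal5 were among genes that gained one. Of 29 lists, 21 had a count that moved over 1.5 times in at least 1 setting, and those the report leads with are given there. Genes not called changed sign near 0: Cxcr4 (0.03) and Slc35b3 (0.04) after quantile normalization, and with 1 array left out Ccr6 (-0.11 to 0.04), Igf1r (-0.06 to 0.18), Klrc3 (-0.01 to 0.16), Il21 (-0.08 to 0.02) and Slc35b3 (-0.06 to 0.02). The cause was not tested. The 3 arrays a group limit what small differences can be called, and no signal over background was available to this comparison.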

Other observations

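Genes outside the lists were gathered by symbol after their values were seen, so their counts are a description. Limma called 9.79% of all genes higher and 11.6% lower. Subunits of the proteasome, which degrades ubiquitin-tagged proteins, were higher in 4 of 5 measured cases: Psma1 by 0.55, Psmc1 by 0.55, Psmb3 by 0.36 and Psmb5 by 0.28, while Psmc5 was not called at 0.05. Psma1 had values of 8.45, 8.65 and 8.34 in naive and 9.0, 9.09 and 9.0 in deletion. The mitochondrial ribosomal genes Mrpl27 and Mrpl52 rose by 0.99 and 0.50, and the third, Mrpl43, was not called at 0.21. Of 3 cytosolic ribosomal genes only Rpl39l was called, higher by 0.63. Hmgn2, which binds nucleosomes, rose from 10.42, 10.34 and 10.08 to 11.65, 11.80 and 11.48, and S100a10, the annexin A2 partner, from 11.80, 11.72 and 11.57 to 12.48, 12.67 and 12.47.

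Alpha chains of 2 receptors of the beta common family rose: Il3ra from 5.93, 5.77 and 6.05 to 7.10, 7.21 and 7.18, and Csf2ra, which binds GM-CSF, from 5.50, 5.68 and 5.70 to 6.56, 6.60 and 6.47. Smo, the signal transducer of the hedgehog pathway, fell by -0.68, from 5.32, 5.49 and 5.29 to 4.67, 4.59 and 4.79. Of gamma-secretase, Psen2 rose by 2.07 while its partner subunits Psenen and Ncstn were not called, at 0.02 and -0.06. None of 22 fibroblast growth factor genes, 9 Frizzled receptor genes, 7 genes of the conserved oligomeric Golgi complex or 6 Hes genes was called by limma. Of 19 Wnt ligand genes Wnt10a was higher by 0.40, Wnt5b fell by 0.35 and 17 were not called.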
